A study of Mus musculus with 8 samples.

Results

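AP-1 and immediate early genes were described across sorted skin stem cells of wild-type (WT) and Msx2-KO mice. The 10 genes were listed by name, with no rule on their values, as members of the Fos family (Fos, Fosb, Fosl1, Fosl2), the Jun family (Jun, Junb, Jund) and the rapidly induced regulators Atf3, Egr1 and Ier2. The hair follicle stem cell (HFSC) table held 9 of the 10 among 23861 genes, with no row for Fosl1, and the epidermal stem cell (EpdSC) table held all 10 among 16231 genes. The 2 tables shared 15337 genes. Bulk RNA-seq had been made from dorsal skin in telogen, the resting phase of the hair cycle, with 2 libraries for each cell type and genotype, 8 in all. By the study's methods, Msx2-KO mice were homozygous for a germline allele of Msx2, a homeobox transcription factor gene. In it a pMC1-neo cassette was inserted upstream of exon 2. The authors named the deposited counts as cKO against WT, but their methods describe no conditional allele. WT mice were C57BL/6J controls matched for hair cycle. No animal received a treatment. The labels gave an age of 2 months for the WT mice of the HFSC libraries and 6 months for all other mice, so that age and genotype differed together in HFSCs and cannot be told apart. HFSCs had been sorted as CD34+CD49f+Sca-1- cells and EpdSCs as CD34-CD49f+Sca-1+ cells, after overnight trypsin at low temperature.

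AP-1 is a family of dimeric transcription factors built from Jun proteins, which can pair with each other, and Fos proteins, which need a Jun partner to bind DNA. Many of their genes are immediate early genes: growth factor, stress and wounding signals that run through MAP kinases switch them on within minutes and without new protein synthesis, and the messages are short-lived. In epidermis AP-1 factors are known to act on keratinocyte differentiation genes, and several immediate early genes are also known to respond when tissue is taken apart into single cells.

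The ratios of Fos and Junb to Jun set the groups of EpdSCs apart, as did those of Fosb, Fosl2, Jund, Egr1 and Ier2. Fos, Jun and Junb are thus examples, and the 250 bases before their starts are shown to set their control regions side by side. They were taken from RefSeq on GRCm38.p6, which had a promoter entry for 7 of the 10 genes and none used here for Fosl1, Egr1 and Ier2. Each is written 5′ to 3′ on the strand of the gene, in lower case, with capitals at matches of the motifs searched on both strands. The Fos window lies on the plus strand at chr12:85473640-85473889, the Jun window on the minus strand at chr4:95052223-95052472 and the Junb window on the minus strand at chr8:84978749-84978998.
Fos: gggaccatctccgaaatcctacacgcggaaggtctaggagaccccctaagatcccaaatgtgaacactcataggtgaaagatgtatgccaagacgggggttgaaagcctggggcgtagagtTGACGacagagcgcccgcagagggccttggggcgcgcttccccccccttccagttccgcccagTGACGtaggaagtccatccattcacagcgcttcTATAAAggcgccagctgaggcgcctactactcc
Jun: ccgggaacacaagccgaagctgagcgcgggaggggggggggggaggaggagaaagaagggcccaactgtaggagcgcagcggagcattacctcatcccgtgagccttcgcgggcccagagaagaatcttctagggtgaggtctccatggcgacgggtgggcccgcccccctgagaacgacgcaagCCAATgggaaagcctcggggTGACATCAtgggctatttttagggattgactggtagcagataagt
Junb: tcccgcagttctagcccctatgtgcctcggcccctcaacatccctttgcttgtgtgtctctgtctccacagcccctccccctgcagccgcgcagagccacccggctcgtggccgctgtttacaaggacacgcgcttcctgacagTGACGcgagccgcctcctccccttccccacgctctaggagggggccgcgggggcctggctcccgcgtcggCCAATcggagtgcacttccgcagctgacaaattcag
In Fos the capitals mark TGACG, a short core of the cyclic AMP response element, at -129 to -125 and again at -66 to -62, counted from the RefSeq start, and the TATA box TATAAA at -33 to -28. In Jun they mark the CCAAT box CCAAT at -65 to -61 and a match of the 8-base element TGACNTCA at -45 to -38. In Junb they mark TGACG at -106 to -102 and CCAAT at -36 to -32. TGACG was present in 4 of the 7 windows (Fos, Fosb, Junb and Atf3) and in 17.8% of the same window in 32851 RefSeq promoters. TGACNTCA was present in Jun only of the 7, against 7.49% of all promoters, CCAAT in Jun and Junb against 33.8%, and TATAAA in Fos against 12.4%. The EGR site GCGNGGGCG was present in Fosb and Fosl2 and in 4.7% of all promoters. The AP-1 site TGANTCA and the CArG box, the element bound by serum response factor, had no match in the 7 windows and were present in 6.75% and 1.47% of all promoters. TGACNTCA and TGACG can overlap and were counted separately. The RefSeq start is the 5′ end of the gene as given below for Fos and Jun. It lies 30 bases upstream of that end for Junb and 1210 for Jund, and inside the gene for Fosb, Fosl2 and Atf3, so those windows may not be the promoter in use. These are matches of letters in a short window, which holds neither the first exon nor any element further upstream, near or distant. A motif with no match there may thus still be present close to the gene.

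Total counts per library ran from 3132974 to 11016659 in HFSCs and from 15211432 to 21092079 in EpdSCs after conversion of the deposited values to counts. The share of mitochondrial and ribosomal RNA was 11.2% and 41.4% in the WT HFSC libraries, 57.0% and 62.5% in the KO-labelled HFSC libraries, 19.1% to 26.9% in the WT EpdSC libraries and 5.16% to 9.61% in the KO-labelled EpdSC libraries. Across genes, the replicates of a group correlated with r = 0.929 for WT HFSCs, 0.581 for KO-labelled HFSCs, 0.952 for WT EpdSCs and 0.844 for KO-labelled EpdSCs. In HFSCs the replicates labelled Msx2-KO thus correlated less with each other than with the WT libraries, where r ran from 0.605 to 0.636. Msx2 itself had 53 and 7 counts in WT HFSCs and 40 and 18 in KO-labelled HFSCs. Relative to the library total these were 12.3 and 2.23 CPM against 3.63 and 2.61 CPM, and after TMM scaling 39.4 and 12.6 normalized counts against 24.2 and 21.3 (log2 fold change -0.20, SE 1.23, adjusted p = 0.975, edgeR). The deposited EpdSC values were 58.5 and 85.4 against 150 and 22.2 (log2 fold change -0.27, SE 1.10, adjusted p = 0.865, limma). Since the counts cover the whole gene and not single exons, they cannot show the cassette, and as the groups overlapped in both cell types, each direction given here rests on the labels, and the libraries are called KO-labelled. Lhx2, an HFSC transcription factor gene, ran from 93.4 to 429 CPM, counts relative to the library total, in HFSCs and from 0.258 to 2.58 CPM in EpdSCs. Sox9 was also higher in HFSCs, at 122 to 738 CPM against 28.5 to 53.6 CPM. Other HFSC markers did not set the cell types apart in this way. Krt15 overlapped, at 1848 to 8143 CPM in HFSCs and 4852 to 12506.5 CPM in EpdSCs. Itga6 was lower in HFSCs, at 55.8 to 287 CPM against 499 to 2770 CPM. Cd34 was not analysed in EpdSCs and Ly6a, the gene of Sca-1, was not analysed in HFSCs. The sample numbers in the column headers also fell into separate series by genotype in both tables, and what they stand for cannot be told apart from genotype. The numbers of the KO-labelled HFSC libraries run close to those of the WT EpdSC libraries, so that neighbouring numbers held the KO-labelled group in one table and the WT group in the other. In bulk RNA, fewer cells that express a gene and less RNA per cell cannot be told apart.

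In HFSCs all 9 genes had negative log2 fold changes, as did 54.6% of all 14422 genes tested, and the largest were those of Fos, Fosb and Atf3. With edgeR's quasi-likelihood test and Benjamini-Hochberg adjustment 0 of the 9 genes were called at an adjusted p under 0.05 and a fold change over 2, as was 0% of all genes. At an unadjusted p under 0.05 there were 3, Fos, Jun and Fosl2, against 18.1% of all genes. DESeq2 called Fos, Jun and Atf3 lower, against 2.5% of all genes called lower and 4.78% called in either direction. In 5 of the 9 (Fos, Fosb, Fosl2, Jun and Ier2) both KO-labelled libraries lay below both WT libraries, against 33.5% of all genes, and in 0 both lay above, against 17.5%. The 9 genes had a median log2 fold change of -2.56, beside -0.14 over all genes. These values rested in part on WT replicate 2: without it the median was -0.66, 7 of the 9 fold changes were negative and 0 genes were called, against 0.825% of all genes, although 5 still lay below WT, against 38.1%. Without WT replicate 1, 9 of the 9 genes lay below WT, against 39% of all genes, and 5 were called, against 0.915%. Without KO-labelled replicate 1 the median was -3.48, 8 lay below, against 51.1%, and 4 were called, which is near the 40.6% of all genes called in that fit. Without KO-labelled replicate 2, 8 were negative, 6 lay below, against 57%, and 2 were called, a lower share than the 57.4% of all genes.

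Among the Fos family genes, Fos, on chromosome 12 from 85473890 to 85477273 of GRCm38, had 303 normalized counts in WT replicate 1, 4807 in WT replicate 2, and 40.0 and 27.2 in the KO-labelled libraries. The WT replicates stood 15.8-fold apart, and even the lower of them was above both KO-labelled libraries. The log2 fold change was -6.23 (standard error, SE, 1.59, adjusted p = 0.144, edgeR), and it was -3.22 without WT replicate 2. It was -7.13 without WT replicate 1, -6.55 without KO-labelled replicate 1 and -5.99 without KO-labelled replicate 2. DESeq2 on all 4 HFSC libraries gave an adjusted p of 9.48e-09. Fosb, a close relative of Fos on chromosome 7 from 19302696 to 19310051, had 613 and 4521 normalized counts in WT, and 171 and 1.18 in the KO-labelled libraries, the last of which was 1 count. The groups did not overlap, but each spread widely, by 7.36-fold in WT. Its log2 fold change was -4.86 (SE 2.10, adjusted p = 0.359, edgeR), -2.88 without WT replicate 2 and -3.90 without KO-labelled replicate 2. The log2 fold change of Fosb was -5.68 without WT replicate 1 and -10.93 without KO-labelled replicate 1. Fosl2, which encodes Fra-2 and lies on chromosome 5 from 32135801 to 32157842, varied least, at 641 and 919 normalized counts in WT and 488 and 410 in the KO-labelled libraries. Its groups were close without overlapping, and the log2 fold change was -0.79 (SE 0.29, adjusted p = 0.275, edgeR).

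Among the Jun family genes, Jun, on chromosome 4 from 95049034 to 95052222, had 1880 and 5810 normalized counts in WT and 999 and 305 in the KO-labelled libraries. Both of the latter were below WT, with a log2 fold change of -2.56 (SE 0.88, adjusted p = 0.246, edgeR), and -1.59 without WT replicate 2. DESeq2 called Jun at an adjusted p of 0.00558. With edgeR its log2 fold change was -3.14 without WT replicate 1, -3.66 without KO-labelled replicate 1 and -1.94 without KO-labelled replicate 2. Junb, which can oppose Jun in growth control, on chromosome 8 from 84976910 to 84978718, had 229 and 1057 normalized counts in WT and 185 and 308 in the KO-labelled libraries. These groups overlapped, and the log2 fold change of -1.38 (SE 0.82, adjusted p = 0.533, edgeR) became 0.056 without WT replicate 2. Jund, the member known for steadier expression, on chromosome 8 from 70698949 to 70700616, had 563 and 1205 in WT and 928 and 208 in the KO-labelled libraries. The groups overlapped here too, with a log2 fold change of -0.63 (SE 0.84, adjusted p = 0.843, edgeR), which was 0.075 without KO-labelled replicate 2 and -2.08 without KO-labelled replicate 1. In GENCODE M21, Jun, Junb and Jund each overlap a gene on the opposite strand (Junos, Prdx2 and Gm11175). For Junb the M21 span is longer than that given above, from 84974484 to 84978718, and the overlap with Prdx2 was not checked on the shorter span. Atf3 overlaps Gm24748 and Fosl1 overlaps Ccdc85b, also on the opposite strand. The use of strand in counting is not given in the sources used here, so the values of these 5 genes are uncertain to that extent.

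Of the other 3 genes, Atf3, a stress-induced relative of the AP-1 proteins on chromosome 1 from 191170296 to 191218039, had the widest spread in WT HFSCs, with 78.0 and 1624 normalized counts. The KO-labelled libraries had 92.1 and 10.6, so that the lower WT library lay between them. The log2 fold change was -4.01 (SE 1.83, adjusted p = 0.391, edgeR), -0.66 without WT replicate 2 and -4.95 without WT replicate 1. Egr1, a zinc finger transcription factor gene on chromosome 18, had 713 and 2897 in WT and 1404 and 569 in the KO-labelled libraries. Its groups overlapped, and the log2 fold change of -0.87 (SE 0.84, adjusted p = 0.749, edgeR) was 0.41 without WT replicate 2. Ier2, a rapidly induced nuclear protein gene on chromosome 8 from 84661331 to 84662852, had 134 and 833 in WT and 107 and 42.5 in the KO-labelled libraries. Both of the latter were lower than WT, by little for WT replicate 1. The log2 fold change was -2.68 (SE 1.07, adjusted p = 0.320, edgeR), -0.91 without WT replicate 2 and -3.46 without WT replicate 1.

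**Figure D1:**
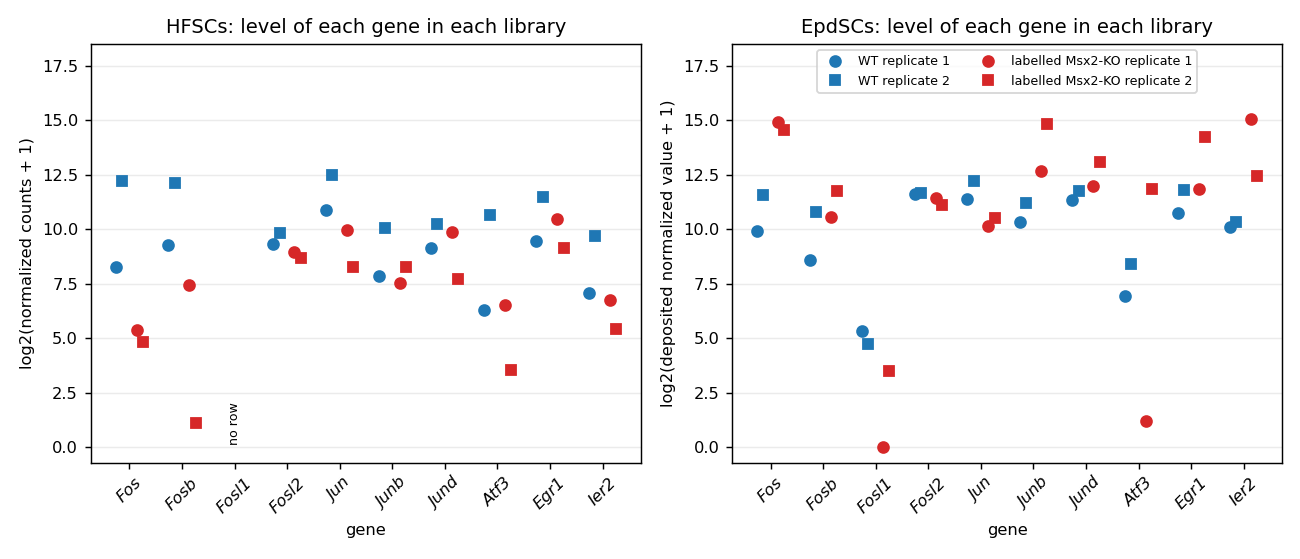
Level of each gene in each library, as log2(normalized counts + 1) for HFSCs (left) and log2(deposited normalized value + 1) for EpdSCs (right), with WT in blue, KO-labelled libraries in red, circles for replicate 1 and squares for replicate 2. In HFSCs the blue squares stand highest for all 9 genes, and in EpdSCs the red points of Fos (31292 and 23996) and Ier2 (33785 and 5507) stand above the blue ones.

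WT replicate 2 of the HFSCs was higher than WT replicate 1 in 9 of 9 genes. The median log2 ratio of replicate 2 to replicate 1 was 2.20, whereas the median distance of all 7887 genes averaging at least 50 normalized counts was 0.26, and 53% of those were higher in replicate 2. Fosl2 moved least, at 1.43-fold, and Atf3 most, at 20.6-fold. Only 0.203% of genes stood as far apart between these replicates as Atf3, 0.216% as far as Fos and 0.456% as far as Fosb. The list of other immediate early genes, among them Nr4a1, Klf4 and Btg2, was higher in replicate 2 in 31 of 31 genes with such a mean, with a median log2 ratio of 1.76. The list of dissociation and heat stress genes was higher there in 16 of 17 (median 1.29). The AP-1 bZIP partners, which bind DNA like AP-1 but are mostly not immediate early genes, were higher in 4 of 10 (median -0.01), and the upstream kinases in 16 of 24 (median 0.13). The share of mitochondrial and ribosomal RNA was also higher in replicate 2, at 41.4% against 11.2%. The part of either in the spread of the 9 genes was not tested.

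The other groups did not repeat that pattern as a whole. In the KO-labelled HFSC libraries, replicate 1 was the higher in 8 of 9 genes, but all genes stood far apart there, with a median distance of 0.91 on the log2 scale. In WT EpdSCs replicate 2 was higher in 9 of 10 genes, the exception being Fosl1, and the median log2 ratio of the 10 was 0.82 beside a median distance of 0.21 over all genes. Fosb (4.72-fold), Fos (3.20-fold) and Atf3 (2.79-fold) were the most spread, while the other immediate early genes were higher in 23 of 34 and the stress genes in 9 of 18. In KO-labelled EpdSCs replicate 2 was higher in 7 of 10 genes and the median distance of all genes was 1.15.

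**Figure D2:**
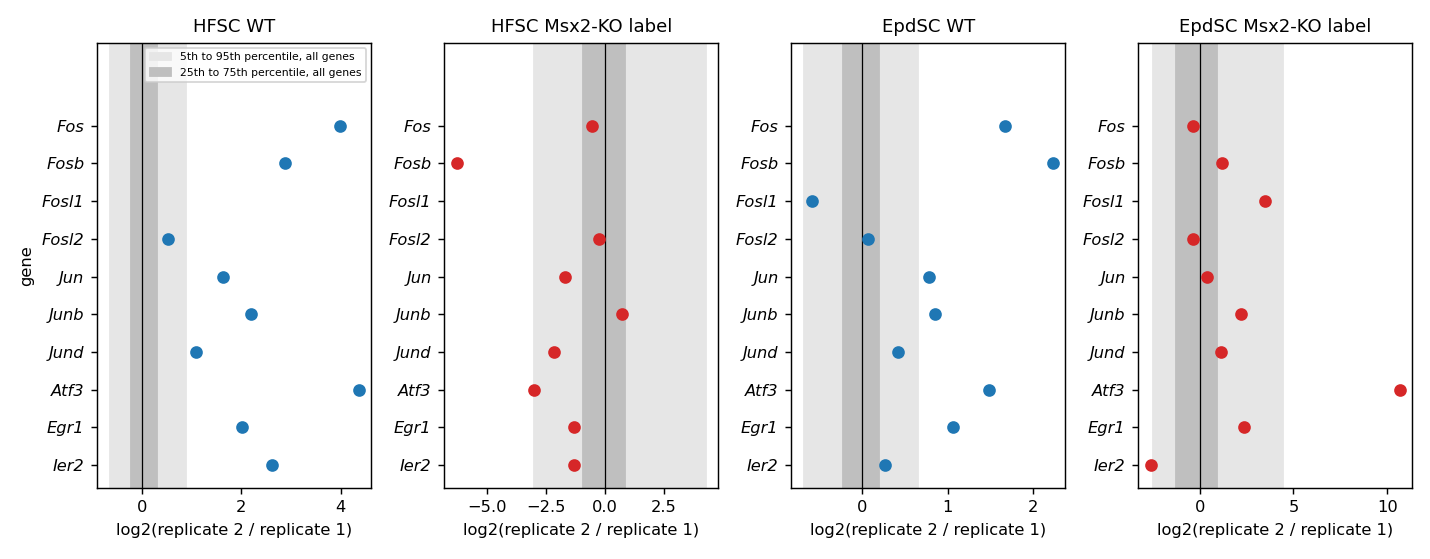
Log2 ratio of replicate 2 to replicate 1 for each gene (points) within each group, with grey bands for the middle of all genes with a mean of at least 50. In WT HFSCs 9 of 9 points lie to the right of 0, with Fosl2 (1.43-fold) nearest to it and Atf3 (20.6-fold) farthest from it, and the x axes differ between panels.

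In EpdSCs the genes parted instead of moving together. By limma on log2(value + 1), 6 of the 10 had positive and 4 negative log2 fold changes, beside 40.3% positive and 59.7% negative over all 16231 genes. At an adjusted p under 0.05 and a fold change over 2, 0 of the 10 were called, against 9.35% of all genes (1.57% higher and 7.78% lower). At an unadjusted p under 0.05 there were 3, Fos, Ier2 and Junb, against 35.3% of all genes. Both KO-labelled libraries lay above both WT libraries in 5 (Fos, Junb, Jund, Egr1 and Ier2), against 27.8% of all genes, and below in 3 (Fosl1, Fosl2 and Jun), against 44.5%. The 10 genes had a median of 1.22, beside -0.64 over all genes. It was 0.56 without WT replicate 1, 2.13 without KO-labelled replicate 1 and 0.52 without KO-labelled replicate 2, and with mitochondrial and ribosomal RNA genes left out it was 0.69 beside -1.14 over all genes. Without KO-labelled replicate 1, 2 of the 10 were called, against 37.6% of all genes, and without KO-labelled replicate 2, 3 were, against 63.9%, both lower shares than that of all genes.

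Of the Fos family, Fos was the gene furthest above WT in EpdSCs, though it missed the threshold. Its deposited normalized values were 953 and 3052 in WT and 31292 and 23996 in the KO-labelled libraries, which were close to each other and far above WT. The log2 fold change was 4.0 (SE 0.77, adjusted p = 0.0609, limma), and with a pseudocount of 10 in place of 1 the adjusted p was 0.0430 and Fos was called. Fosb had 380 and 1796 in WT and 1508 and 3453 in the KO-labelled libraries. Its groups overlapped, with a log2 fold change of 1.46 (SE 1.03, adjusted p = 0.348, limma), which ran from 0.34 without WT replicate 1 to 2.58 without WT replicate 2, was 0.87 without KO-labelled replicate 2 and was 0.93 with mitochondrial and ribosomal RNA genes left out. Fosl1, which encodes Fra-1 and lies on chromosome 19, was near the lower end of detection, at 38.9 and 25.5 in WT, at 0 in KO-labelled replicate 1 and at 10.3 in KO-labelled replicate 2. Its log2 fold change was -3.27 (SE 1.36, adjusted p = 0.179, limma). It was -5.02 without KO-labelled replicate 2 and -1.53 without KO-labelled replicate 1, and -4.95 and -1.55 with pseudocounts of 0.1 and 10. Fosl2 was again the steadiest, at 3122 and 3280 in WT and 2763 and 2180 in the KO-labelled libraries, with a log2 fold change of -0.38 (SE 0.48, adjusted p = 0.576, limma), and -0.21 without KO-labelled replicate 2.

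Jun and Junb stood on opposite sides in EpdSCs. Jun had 2717 and 4685 in WT and 1121 and 1450 in the KO-labelled libraries, both lower than WT, with a log2 fold change of -1.48 (SE 0.56, adjusted p = 0.155, limma). Junb had 1305 and 2365 in WT and 6457 and 29219 in the KO-labelled libraries. Both of these were above WT, and they stood 4.52-fold apart. Junb's log2 fold change was 2.97 (SE 0.96, adjusted p = 0.126, limma), 4.05 without KO-labelled replicate 1 and 1.88 without KO-labelled replicate 2. Jund had 2569 and 3433 in WT and 4005 and 8618 in the KO-labelled libraries, so the groups did not overlap but came close. Its log2 fold change was 0.98 (SE 0.63, adjusted p = 0.310, limma), 1.54 without KO-labelled replicate 1, 0.43 without KO-labelled replicate 2 and 0.45 with mitochondrial and ribosomal RNA genes left out.

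Atf3 in EpdSCs had 120 and 338 in WT, and 1.27, the value of a single count, and 3735 in the KO-labelled libraries. Those last libraries bracketed WT on both sides, and only 0.0195% of genes stood as far apart between them. The log2 fold change of -1.14 (SE 3.93, adjusted p = 0.844, limma) was 4.2 without KO-labelled replicate 1 and -6.48 without KO-labelled replicate 2. Egr1 had 1704 and 3558 in WT and 3736 and 19121 in the KO-labelled libraries. The lower of the latter was barely above the higher WT library, and the log2 fold change was 1.78 (SE 1.04, adjusted p = 0.280, limma), 2.96 without KO-labelled replicate 1 and 0.60 without KO-labelled replicate 2. Ier2 had 1089 and 1307 in WT and 33785 and 5507 in the KO-labelled libraries, both far above WT but 6.13-fold apart. Its log2 fold change was 3.51 (SE 1.06, adjusted p = 0.113, limma), 2.21 without KO-labelled replicate 1 and 4.82 without KO-labelled replicate 2.

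**Figure D3:**
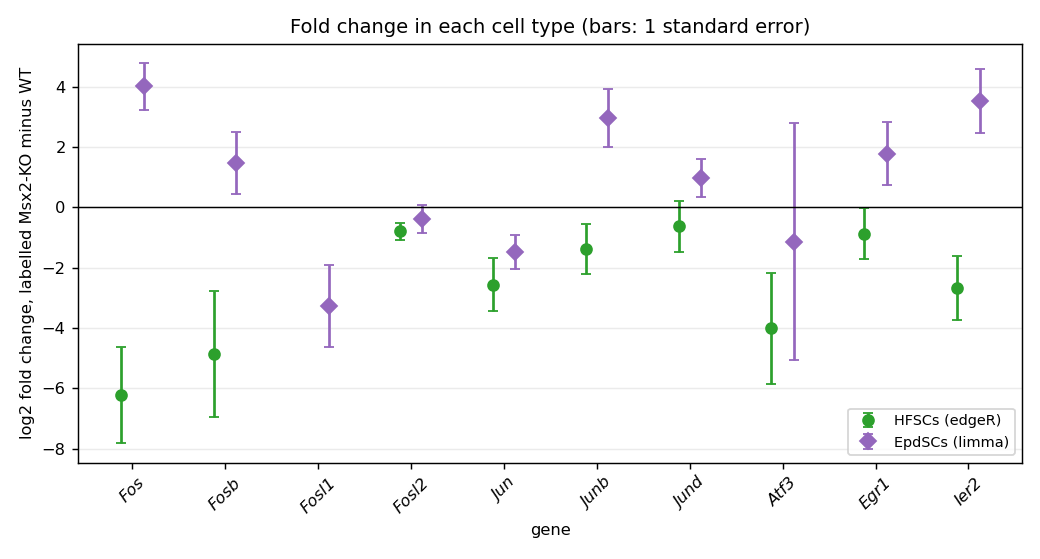
Log2 fold change of each gene, KO-labelled libraries minus WT, in HFSCs (green circles, edgeR) and EpdSCs (purple diamonds, limma on log2(value + 1)), with bars of 1 standard error. The 9 HFSC points are negative, from -6.23 for Fos to -0.63 for Jund, while the EpdSC points run from -3.27 for Fosl1 to 4.0 for Fos.

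Set side by side, 9 genes were tested in both cell types. Fos and Ier2 lay below WT in HFSCs and above WT in EpdSCs in every library, a combination found in 8.58% of the 13151 genes tested in both. Fosl2 and Jun lay below in both cell types, as did 15.3% of all genes, and 0 genes lay above in HFSCs and below in EpdSCs, against 7.97%. The difference between the cell types was not tested, since the tables had been normalized separately and the WT ages differed.

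Ratios of 2 genes within a library do not depend on the scaling of that library. Per exon length, the ratio of Fos to Jun was 0.218 and 1.12 in WT HFSCs and 0.0543 and 0.121 in KO-labelled HFSCs. In EpdSCs it was 0.476 and 0.883 in WT and 37.9 and 22.4 in the KO-labelled libraries. Fos was thus less abundant than Jun in all WT and HFSC libraries but WT HFSC replicate 2, and far more abundant than Jun in both KO-labelled EpdSC libraries. The ratio of Junb to Jun was 0.169 and 0.252 in WT HFSCs, 0.256 and 1.40 in KO-labelled HFSCs, 0.666 and 0.700 in WT EpdSCs, and 7.99 and 27.9 in KO-labelled EpdSCs. Jund to Jun was 0.572 and 0.396 in WT HFSCs and 1.78 and 1.31 in KO-labelled HFSCs, and 1.81 and 1.40 against 6.83 and 11.4 in EpdSCs. Egr1 to Jun was likewise higher in the KO-labelled libraries of both cell types, at 0.999 and 1.33 against 0.270 and 0.355 in HFSCs and at 2.37 and 9.38 against 0.446 and 0.540 in EpdSCs. Fosl2 to Jun was 0.161 and 0.443 against 0.112 and 0.0521 in HFSCs and 0.812 and 0.495 against 0.379 and 0.231 in EpdSCs. Relative to Jun, which itself lay below WT in both cell types, Junb, Jund, Egr1 and Fosl2 thus stood higher in all 4 KO-labelled libraries than in the WT libraries of the same cell type, and Fos, Fosb, Ier2 and Atf3 did not. For Junb in HFSCs the gap was small, at 0.256 against 0.252. A gene with an unchanged level would also stand higher relative to Jun, and Fosl2 did so though it lay below WT in both cell types. The share of all genes with such a ratio to Jun was not computed. Ier2 to Jun did not separate the groups in HFSCs, at 0.150 and 0.30 in WT and 0.224 and 0.292 in the KO-labelled libraries, and did in EpdSCs, at 0.840 and 0.585 against 63.2 and 7.96.

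**Figure D4:**
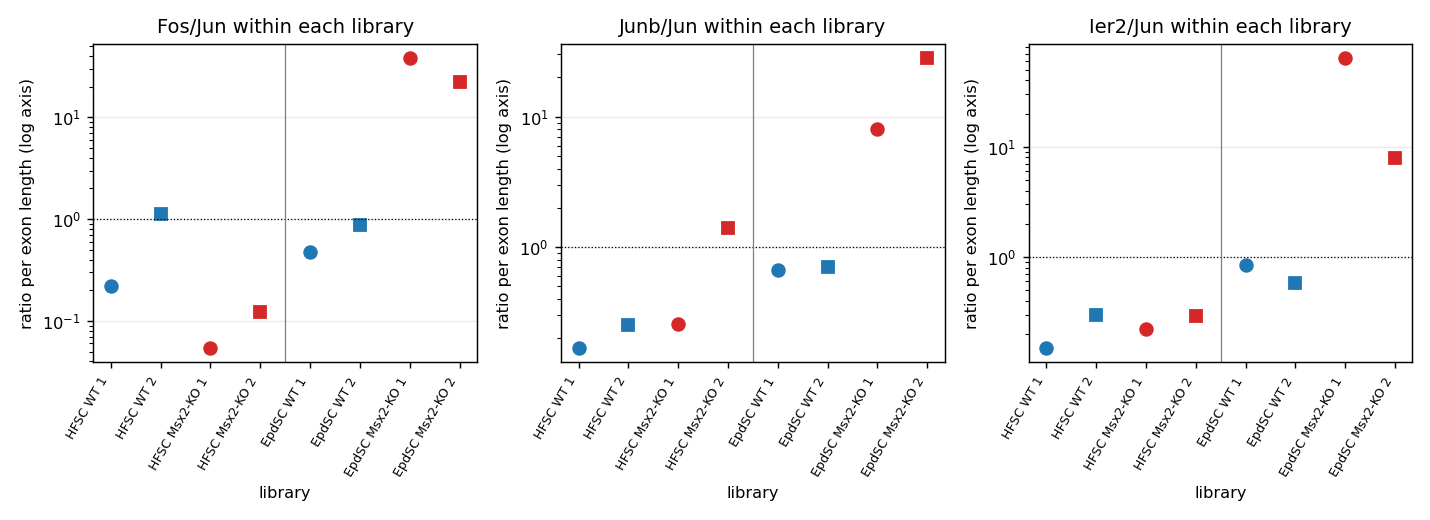
Ratio of Fos, Junb and Ier2 to Jun per exon length within each library, on log axes, with WT in blue, KO-labelled libraries in red and a dotted line at equal levels. The KO-labelled EpdSC libraries stand highest in each panel, at 37.9 and 22.4 for Fos, 7.99 and 27.9 for Junb and 63.2 and 7.96 for Ier2.

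The 9 genes in both tables together took 0.165% and 0.427% of the counts over shared genes in WT HFSCs and 0.0665% and 0.0233% in KO-labelled HFSCs. In EpdSCs they took 0.0848% and 0.162% in WT and 0.344% and 0.687% in the KO-labelled libraries, the reverse order. Without mitochondrial and ribosomal RNA genes, the sums were 1864 and 7364 CPM in WT HFSCs and 1560 and 630 CPM in KO-labelled HFSCs, so WT replicate 1 then stood close to KO-labelled replicate 1. The EpdSC sums were 1161 and 2008 CPM in WT against 3628 and 7598 CPM. The leading gene changed as well. Per kilobase of exon, Jun was the most abundant of the 9 in WT HFSC replicate 1 (189 CPM per kb) and Fos in WT HFSC replicate 2 (369), while Jund (83.8) and Junb (16.6) led in the KO-labelled HFSC libraries. Jund led in both WT EpdSC libraries (93.6 and 140), and Ier2 (902) and Junb (896) led in the KO-labelled EpdSC libraries, where Fos was second in each (541 and 720).

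Over the 8 libraries, which share cell type and genotype groups and so are not independent points, Pearson's r of each gene's log2(CPM + 1) with the mean of the other 8 genes ran from 0.45 for Jun to 0.92 for Fosb. Fos and Ier2 were the most alike pair (r = 0.93), while r was -0.004 for Jun with Ier2 and -0.02 for Jun with Junb. Of 3029 other genes with a mean of at least 50 CPM, the most like the mean of the 9 genes were Sec62 (r = 0.95), a protein translocation gene, Txnip (0.94), a thioredoxin-binding protein gene, Maf (0.93), itself a bZIP factor gene, Zfp36 (0.93), whose product destabilizes messages of many immediate early genes, and Marveld1 (0.90). These are descriptions over 8 libraries that differ in depth and in the share of mitochondrial and ribosomal RNA.

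The wider pathway was described by lists. In HFSCs 0 genes of any list below were called by edgeR, as was 0% of all genes. Of 40 other immediate early genes tested, 8 lay above and 15 below WT in both KO-labelled libraries, with a median log2 fold change of -1.11, or -0.54 with 3 genes at 0 in those libraries set to the bound that 3 counts per library allow, and 8 had an unadjusted p under 0.05. The shares above and below WT were close to the 17.5% and 33.5% of all genes, and that at an unadjusted p under 0.05 to the 18.1%. DESeq2 called 4 of the 40 lower and 0 higher, against 2.5% of all genes called lower and 4.78% called in either direction. Btg2, an antiproliferative gene, had 256 and 2388 normalized counts in WT and 84.2 and 145 in the KO-labelled libraries. Ptgs2, which encodes cyclooxygenase-2, had 75.7 and 176 against 0 and 0, and Ccn1, a matricellular protein gene, 755 and 3996 against 562 and 188. WT replicate 2 was the highest library for each of these 3 genes, as it was for the Fos and Jun genes.

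In EpdSCs 15 of 41 other immediate early genes lay above WT and 7 below, beside 27.8% and 44.5% of all genes, with a median log2 fold change of 0.23. Of these 0 were called by limma, against 9.35% of all genes, and 8 had an unadjusted p under 0.05, a lower share than the 35.3% of all genes. Klf6, a zinc finger factor gene, had 2102 and 2218 in WT and 31790 and 13012 in the KO-labelled libraries (log2 fold change 3.24, SE 0.65, adjusted p = 0.0646, limma). Sgk1, a serum- and glucocorticoid-induced kinase gene, had 732 and 770 against 11730 and 4677, Tiparp 503 and 531 against 3185 and 2236, and Hbegf, an EGF receptor ligand gene, 42.2 and 69.2 against 101 and 368. All 4 lay above WT, and none of them passed the threshold.

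The feedback inhibitors of the pathway include phosphatases and message-destabilizing proteins that are themselves induced by it. In HFSCs 1 of 16 lay above and 6 below WT (median -0.63), beside 17.5% and 33.5% of all genes, and in EpdSCs 10 of 16 lay above and 2 below (median 0.82), beside 27.8% and 44.5%. edgeR and limma called 0 of them, against 0% and 9.35% of all genes. DESeq2 called 1 of the 16 lower in HFSCs, against 2.5% of all genes called lower. Dusp1, the phosphatase gene for MAP kinases, had 359 and 1626 normalized counts in WT HFSCs and 52.7 and 137 in KO-labelled HFSCs. Its log2 fold change was -3.40 (SE 0.98, adjusted p = 0.174, edgeR). In EpdSCs Dusp1 had 1659 and 2838 in WT and 13126 and 36899 in the KO-labelled libraries, a log2 fold change of 3.34 (SE 0.76, adjusted p = 0.0770, limma). Zfp36l1 had 922 and 1045 in WT HFSCs against 476 and 399, and 2253 and 2893 in WT EpdSCs against 11680 and 10672. For both genes the KO-labelled libraries were below WT in HFSCs and above WT in EpdSCs, like Fos and Ier2. Dusp16, another phosphatase gene for MAP kinases, lay below WT in both, with 226 and 182 against 158 and 34.2 in HFSCs and 568 and 497 against 10.2 and 171 in EpdSCs (log2 fold change -3.60, SE 1.5, adjusted p = 0.179, limma).

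The counts of the next lists stand beside 17.5% of all genes above and 33.5% below WT in HFSCs, and 27.8% above and 44.5% below in EpdSCs. The upstream kinases and serum response regulators had 2 of 27 above and 7 below in HFSCs (median -0.28) and 10 of 27 above and 9 below in EpdSCs (median 0.23). In EpdSCs Map2k1, which encodes the kinase MEK1, had 320 and 341 in WT and 3425 and 1560 in the KO-labelled libraries, and Map2k2, which encodes MEK2, had 1398 and 1251 against 50.9 and 217.7. Neither passed the threshold. The AP-1 bZIP partners and relatives had 1 of 14 above and 7 below in HFSCs (median -0.49, or -0.10 with 1 gene at its bound) and 3 of 13 above and 5 below in EpdSCs (median -0.30). Ddit3, the stress factor gene also named CHOP, had 157 and 182 in WT EpdSCs and 1.27 and 18.2 in the KO-labelled libraries. Of the reported AP-1 targets, 7 were tested in HFSCs, with 1 above, 1 below and a median of 0.27, and 16 in EpdSCs, with 7 above, 6 below and a median of 0.28. The only call among them was Ivl in EpdSCs, the gene of the cornified envelope protein involucrin, with 433 and 232 in WT and 2.55 and 9.44 in the KO-labelled libraries (log2 fold change -5.71, SE 0.80, adjusted p = 0.0368, limma). This 1 call among 16 is a lower share than the 9.35% of all genes called, 7.78% lower. At an unadjusted p under 0.05 there were 1 of 7 targets in HFSCs and 9 of 16 in EpdSCs, beside 18.1% and 35.3% of all genes. DESeq2 called 0 of the 7 in HFSCs. Ivl is also one of the suprabasal markers. Where 0 genes of a list were called, the genes with an unadjusted p under 0.05 in HFSCs and EpdSCs were 2 and 7 for the kinases, 2 and 3 for the bZIP partners and 2 and 3 for the feedback inhibitors, beside 18.1% and 35.3% of all genes. DESeq2 called 0 kinases, 0 bZIP partners and 1 feedback inhibitor (lower) in HFSCs, beside 4.78% of all genes in either direction and 2.5% lower.

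Markers of other cells moved with these comparisons. The 10 HFSC markers summed to 16900 and 9006 CPM in WT HFSCs and 3876 and 3415 CPM in KO-labelled HFSCs, and the 8 of them in the EpdSC table to 5457 and 7386 CPM in WT against 12588 and 15551 CPM. These sums include mitochondrial and ribosomal RNA in the total, and the median log2 fold change of the HFSC markers after TMM scaling was smaller, at -0.84 in HFSCs. In EpdSCs 5 of the 8 had positive and 3 negative log2 fold changes. Of the 8, 1 was called higher, Postn, beside 1.57% of all genes. Its deposited values were 457 and 488 in WT against 10771 and 8326 (log2 fold change 4.32, SE 0.48, adjusted p = 0.0281, limma). The interfollicular basal markers (8 of 9 and 9 of 9 in the tables) summed to 14258 and 8293 CPM against 4378 and 3420 CPM in HFSCs and to 15063 and 20181 CPM against 27283 and 37612 CPM in EpdSCs. Their log2 fold changes were mixed, with 3 positive and 5 negative in HFSCs and 5 positive and 4 negative in EpdSCs. Among the latter 4 was Itgb4, with deposited values of 7432 and 11067 in WT against 183 and 1148. The summed level of the suprabasal epidermis markers, all 8 present in both tables, was 333 and 214 CPM in WT HFSCs and 677 and 2154 CPM in KO-labelled HFSCs, and 18196 and 14750 CPM in WT EpdSCs against 4349 and 5773 CPM. The sebaceous gland markers (5 of 6 in the HFSC table, 3 of 6 in the EpdSC table) went from 59.0 and 30.9 CPM to 984 and 620 CPM in HFSCs and from 234 and 317 CPM to 965 and 721 CPM in EpdSCs. The immune markers (6 of 8 in the HFSC table, with Trdc at 0 in all libraries) stood at 5.11 to 19.7 CPM in HFSCs, and in EpdSCs 7 of 8 were in the table, at 48.8 and 3.94 CPM in WT and 0.103 and 0.284 CPM in the KO-labelled libraries. Fibroblast markers were 9.72 to 88.1 CPM in HFSCs (4 of 8 in the table), and 0 of 8 were in the EpdSC table. Endothelial and pericyte markers were 2.76 to 19.2 CPM in HFSCs (5 of 6) and 0.323 to 1.28 CPM in EpdSCs (1 of 6), and melanocyte markers 12.2 to 40.7 CPM in HFSCs (4 of 5) with 0 of 5 in the EpdSC table. The dissociation and heat stress genes had 4 of 18 above and 5 below in HFSCs (median -0.35) and 4 of 18 above and 6 below in EpdSCs (median -0.29), beside the same 17.5% and 33.5%, and 27.8% and 44.5%, of all genes. Of the 18, 0 were called by edgeR and limma, beside 0% and 9.35% of all genes. At an unadjusted p under 0.05 there were 3 and 4, beside 18.1% and 35.3% of all genes. DESeq2 called 1 of the 18 higher and 1 lower in HFSCs, beside 4.78% of all genes in either direction and 2.5% lower. The part of these cells and of the stress genes in the levels of the AP-1 and immediate early genes was not tested.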

How the data were processed

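Bulk RNA-seq of 8 libraries, 2 per group, was analysed, with groups taken from the sample labels. The authors made libraries with a stranded total RNA kit (SMARTer, v3) and aligned reads with STAR 2.7.3a in Partek Flow to GRCm38/mm10 with GENCODE genes. The HFSC table that the authors deposited holds estimated counts, not normalized, which were rounded. For EpdSCs the deposited values were a normalized signal, estimated counts divided by 1 factor per library (value of 1 count from 0.674 to 1.27). Nonzero values were whole, within 0.02 of a count, in 71.2% to 89.8% of genes in HFSC libraries but in only 38.2% to 82.6% in EpdSC libraries, so no count test was run on the latter. The authors also deposited their own comparison of the genotypes with p-values, FDR, ratios, fold changes and fitted means, which was not used. Columns with values per library that were not mapped to a sample numbered 0.

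HFSC counts were tested with edgeR 4.0.16 (TMM factors, quasi-likelihood, 14422 genes past filterByExpr), and normalized counts were scaled to 5563025 per library. For EpdSCs limma 3.58.1 was run on log2(value + 1) over all 16231 genes, so a fold change of a low gene is understated. Calls needed an adjusted p (Benjamini-Hochberg, over all genes tested) under 0.05 and an absolute fold change over 2. Standard errors of edgeR fold changes were their size divided by the square root of F. An exact permutation test of 2 against 2 libraries cannot give a two-sided p under 0.333. Nothing in the labels says that replicates came from separate animals, so p-values measure the spread between these libraries, which may be technical. Same-numbered libraries of the genotypes did not deviate together (r = -0.05 in HFSCs and -0.02 in EpdSCs), so the numbers do not pair them. Levels across cell types were CPM over the 15337 shared genes, per exon length of GENCODE M21. For Junb that length, 2301 bp, belongs to a longer gene span than the one given for HFSCs, so its values per length are uncertain. Both fits were also run on simulated counts, whose dispersions were below the HFSC common dispersion of 0.823. That run gives no support for the fits at the spread between libraries seen here. DESeq2 1.42.0, limma-trend (prior count 3), other scalings, filters and pseudocounts, a replicate block and each library left out were alternatives. With a library left out, the lone library of a group is assumed to vary like the other group. R 4.3.3, Python 3.11.15 and matplotlib 3.10.9 were used.

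The 10 genes were listed by name with no rule on their values, but they, the pathway and marker lists, tests and alternatives were chosen with earlier results of these data known. Of each list the called genes were named, or otherwise up to 4 with the largest log2 fold change among those whose groups did not overlap and whose mean was at least 50, and some of these are left out of the text. The 5 genes most like the mean of the 9 genes in both tables were named by Pearson's r over genes with a mean of at least 50 CPM. Nr4a1, Klf4, Lhx2, Sox9 and the genes that overlap members were named outside this rule.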

Additional observations from a re-analysis of the deposited data

Results flagged for a closer look

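Fos and Ier2 went opposite ways in the cell types in every library, by label. In HFSCs both libraries labelled Msx2-KO were below both WT libraries, with log2 fold changes of -6.23 for Fos and -2.68 for Ier2. In EpdSCs both were above both WT libraries, with log2 fold changes of 4.0 for Fos and 3.51 for Ier2. The difference between the cell types was not tested. The lower group was in both cell types the one with neighbouring sample numbers in the column headers (KO-labelled HFSCs and WT EpdSCs), so that by those numbers the direction was the same, and the part of the numbers in it cannot be told apart from genotype. Groups of 2 libraries were too small to be examined for a single library far from the others.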

How the results depend on the processing

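HFSC counts of calls changed most. Against 0 higher and 0 lower, DESeq2 called 330 and 360, limma-trend 158 and 1249, scaling by library totals 16 and 35, a minimum of 10 counts in every library 2 higher, and leaving out single libraries 79 to 2451 higher and 27 to 5822 lower. Of the 9 AP-1 and immediate early genes, DESeq2 called 3, library totals 1 (Fos) and leaving out single libraries 0 to 5, and the count below WT was 5 to 9. With the replicate block, HFSC calls were 145 higher and 86 lower, with 1 of the 9 genes called (Fos, -5.11, adjusted p = 0.00217), and EpdSC calls were 178 higher and 1093 lower, with 0 of the 10. In EpdSCs the 255 higher calls became 162 with a pseudocount of 0.1, 619 with 10, and 0 to 3745 without single libraries, and the 1263 lower calls 0 to 6631. Of the 10 genes, 1 was called with a pseudocount of 10 and 0 to 3 without single libraries. Of 216 fold changes of single genes under alternatives, 190 kept direction and side of the threshold, 22 passed it newly and 4 turned. Those were, in HFSCs, Junb (-2.08 to 0.056 without single libraries), Jund (-2.08 to 0.075) and Egr1 (-1.66 to 0.41), and in EpdSCs Atf3 (-6.48 to 4.2). The cause was not tested. Library totals moved the HFSC median of all genes from -0.14 to -1.0, and leaving out mitochondrial and ribosomal RNA genes moved that of EpdSCs from -0.64 to -1.14 and that of the 10 genes there from 1.22 to 0.69. All 9 HFSC genes stayed negative under every other scaling. The HFSC median of -2.56 was -1.29 with at least 10 counts in every library, which dropped Fosb and Atf3. The counts of non-overlapping genes and the medians without single libraries were chosen after seeing the data. Fosb, Atf3 and Fosl1 were each at 0 or 1 count in a library, which limits their fold changes. Those libraries were not the shallowest of their cell type in total counts, but held fewer genes with at least 1 count than WT. For Fosb this was KO-labelled HFSC replicate 2, with 14251 such genes against 22447 and 19595 in WT. For Atf3 and Fosl1 it was KO-labelled EpdSC replicate 1, with 12718 against 15789 and 15830. The part of this in the low values was not tested.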
